A study of Homo sapiens and Homo sapiens
Mus musculus and Mus musculus with 200 samples.

Results

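ALX1 is a paired-type homeodomain factor of the cranial neural crest, the embryonic cell population that forms most of the facial skeleton and connective tissue. Its sites on chromatin were compared here between cells that carry ALX4, a closely related factor, and cells that lack it. The sites came from 4 V5 peak lists of human cranial neural crest cells (hCNCC), 2 from the line ALX1FV and 2 from the line ALX1FV ALX4-, all taken at 0 h of dTAGV-1. The lists held 1389 and 376 peaks (ALX1FV, replicates 1 and 2) and 920 and 1116 peaks (ALX1FV ALX4-, replicates 1 and 2), out of 4129 V5 peaks at 0 h when those of the line MSX1FNV are included. Peaks that shared at least 1 bp were merged, which gave 2417 ALX1 sites.

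Both lines were edited from H9, an established human embryonic stem cell line, and differentiated to hCNCC. In both, ALX1 carries a tag that is read by a V5 antibody and lets the compound dTAGV-1 (500 nM) degrade the protein. ALX1FV ALX4- also lacks ALX4, per the labels. No RNA or protein value of ALX4 was used here, so the genotype rests on the labels. Each replicate was a different clone (c17 and c33 in ALX1FV, c22 and c14 in ALX1FV ALX4-). ALX4 genotype, clone and differentiation therefore cannot be told apart, and p-values for the V5 lists measure the spread between these clones. The test of TWIST1 positions rests on WT libraries as well. H3K27ac fits that pair the time points of a clone measure the spread within clones. With 2 libraries against 2 the smallest two-sided exact p is 0.33. Of the other data, TWIST1 peaks came from unedited cells (WT) and ALX1FV ALX4-, and H3K27ac counts came from ALX1FV and ALX1FV ALX4- at 0, 3 and 24 h of dTAGV-1. TWIST1 peaks of ALX1FV were not analysed here, and neither were V5 libraries after 3 h of dTAGV-1. In bulk cells, fewer cells with a bound or acetylated site and less signal per cell cannot be told apart.

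ALX factors bind the homeodomain core TAAT, and paired-type homeodomains can also bind as dimers on a pair of facing cores. TWIST1, a bHLH factor of the facial mesenchyme, binds E-boxes, and H3K27ac marks active enhancers and promoters. E-boxes and homeodomain sites can lie side by side in a composite element, which TWIST1 dimers and a homeodomain factor can occupy together.

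The hg38 reference sequence of 8 sites gives examples of the motifs, at line-specific sites and at sites of both lines. Each window is centred on the V5 summit and read on the plus strand, with motif matches in capitals. In 4 of them lies the homeodomain dimer, TAAT and ATTA with 3 bp between. These sites are near ALX4 (chr11:44426534-44426634), TFAP2B (chr6:51117017-51117117), SIX2 (chr2:45117520-45117620) and BTRC (chr10:101442207-101442307). The TFAP2B site was in both ALX1FV lists only, the ALX4 site in 3 lists, and the other 2 in all 4 lists. The dimer examples and the BRD7 example were chosen after their values were seen.
ALX4: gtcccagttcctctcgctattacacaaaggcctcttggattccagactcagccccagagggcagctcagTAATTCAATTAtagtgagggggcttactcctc
TFAP2B: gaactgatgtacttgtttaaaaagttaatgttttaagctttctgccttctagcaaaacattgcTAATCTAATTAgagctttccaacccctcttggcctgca
SIX2: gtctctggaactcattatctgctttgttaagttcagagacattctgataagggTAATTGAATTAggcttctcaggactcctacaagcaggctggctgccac
BTRC: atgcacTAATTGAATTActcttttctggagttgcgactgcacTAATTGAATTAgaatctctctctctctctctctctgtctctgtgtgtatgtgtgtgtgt
The ALX4, TFAP2B and SIX2 windows hold no E-box, and the BTRC window holds the dimer at 2 places.

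The other 4 hold E-boxes. The sites near TMEM119 (chr12:108609689-108609789) and EMID1 (chr22:29187919-29188019) were in both ALX1FV ALX4- lists and in neither ALX1FV list. The CDH11 site (chr16:65272146-65272246) and the BRD7 site (chr16:50425754-50425854) were in all 4 lists. In the CDH11 window a pair of E-boxes is 5 bp apart, and in the BRD7 window an E-box lies 4 bp from a homeodomain site, the composite arrangement.
TMEM119: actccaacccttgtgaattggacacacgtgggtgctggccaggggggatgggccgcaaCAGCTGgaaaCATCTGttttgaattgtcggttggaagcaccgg
EMID1: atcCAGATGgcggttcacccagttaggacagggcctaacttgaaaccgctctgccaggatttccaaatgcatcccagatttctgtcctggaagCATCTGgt
CDH11: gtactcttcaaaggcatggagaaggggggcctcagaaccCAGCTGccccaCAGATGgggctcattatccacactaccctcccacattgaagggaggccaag
BRD7: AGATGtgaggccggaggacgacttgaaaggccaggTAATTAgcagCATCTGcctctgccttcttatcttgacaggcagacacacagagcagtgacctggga
The capitals at the start of the BRD7 window belong to an E-box that begins before it, so the window holds 1 whole E-box. The windows near TMEM119, EMID1 and CDH11 hold no homeodomain site.

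Most ALX1 sites were in only 1 list. Of the 2417 sites, 133 were in all 4 lists, 690 in lists of both lines, 838 in ALX1FV lists only and 889 in ALX1FV ALX4- lists only. The line-specific sites were mostly private to 1 clone: 717 were listed in ALX1FV replicate 1 alone and 80 in replicate 2 alone, against 41 in both ALX1FV lists. In ALX1FV ALX4-, 309 and 443 sites were private to replicates 1 and 2, and 137 were in both lists. In all, 1549 sites (64.1%) were in a single list. These counts moved with list length and with single libraries: without ALX1FV replicate 2, the shortest list, the sites in all lists rose to 296 and those in every ALX1FV list and no ALX1FV ALX4- list to 758. When every list was limited to its 376 strongest peaks, 19 sites were in all 4, 29 in both ALX1FV lists only and 55 in both ALX1FV ALX4- lists only.

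**Figure D1:**
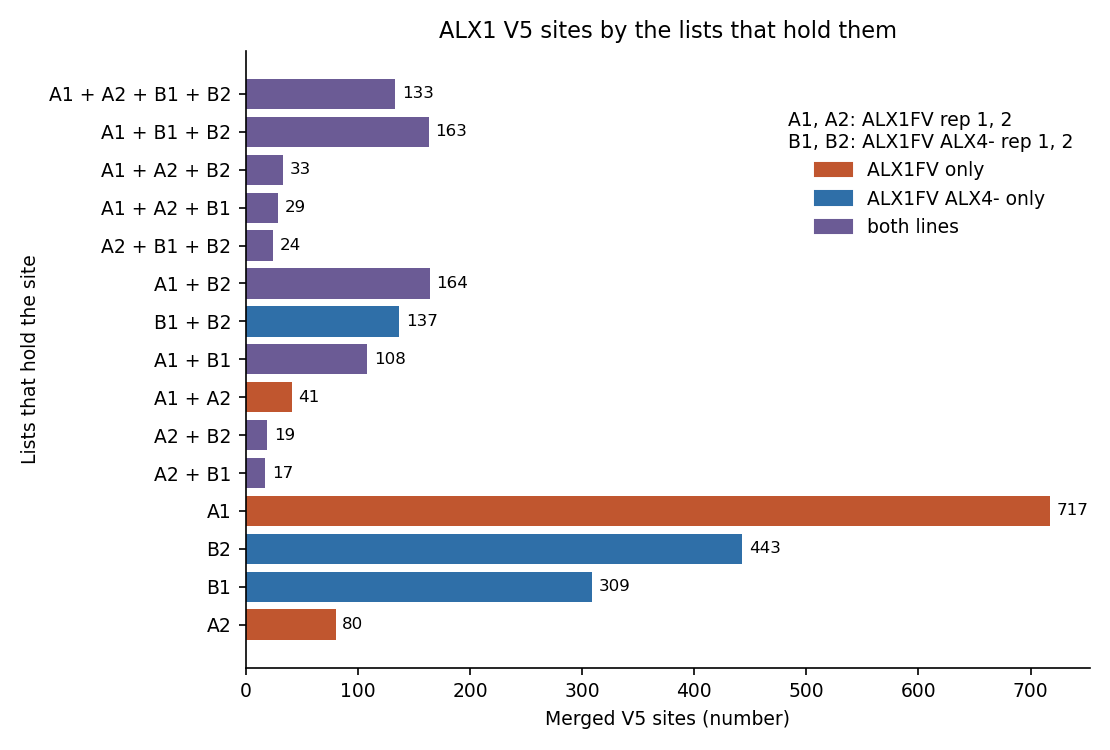
Number of merged ALX1 V5 sites (x axis) by the combination of lists that holds them (y axis; A1 and A2 are ALX1FV replicates 1 and 2, B1 and B2 are ALX1FV ALX4- replicates 1 and 2). The longest bar is the 717 sites private to ALX1FV replicate 1, and 133 sites are in all 4 lists.

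Clones of a line shared more ALX1 peaks than clones of different lines on average, by a gap that the spread of the pairs overlapped. Among the 376 strongest peaks of each list, 21.8% were shared by the ALX1FV clones and 29.0% by the ALX1FV ALX4- clones. Between the lines the shares were 18.9%, 18.6%, 27.9% and 25.5%. ALX1FV replicate 2 shared more of its strongest peaks with either ALX1FV ALX4- clone than with ALX1FV replicate 1. Sharing was 2.66 percentage points higher within than between lines (exact permutation test over the pairings, p = 0.33, the smallest it can give). Ranking by -log10 q gave 5.78 points (exact p = 0.33), and the 200 strongest peaks gave 2.13 points (exact p = 0.67).

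Fold enrichment, the authors' own value per peak, had medians of 5.31 and 5.72 in the ALX1FV lists and 6.15 and 6.09 in the ALX1FV ALX4- lists. It cannot be set between lists as a level, because read depth and control are unknown. Within a list, sites also found elsewhere were stronger. In ALX1FV ALX4- replicate 1 the median fold was 6.52 for peaks also in an ALX1FV list and 5.87 for the others. In ALX1FV replicate 2 these medians were 6.00 and 5.23, and 83.2% of the peaks in its upper quartile of fold were in an ALX1FV ALX4- list against 54.3% in its lower quartile. The longest list showed the smallest gap, with 5.52 and 5.25 in ALX1FV replicate 1.

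Among the 133 sites in all 4 lists, the one with the best mean rank lay 249881 bp downstream of the start of MN1, a transcription co-regulator gene named for meningioma (chr22:27541713-27542247). Its fold was 7.62 and 8.68 in ALX1FV and 13.3 and 19.8 in ALX1FV ALX4-, ranks 164 and 28 against 8 and 1. The next was an intronic site of GCNT1, a glycosyltransferase gene (chr9:76527957-76528423), with folds of 8.73, 8.71, 12.3 and 10.2. A site 226136 bp upstream of TLE3, a corepressor gene, had folds of 13.1 and 9.38 in ALX1FV and 6.02 and 16.7 in ALX1FV ALX4-. It ranked 4, 17, 476.5 and 3, so the ALX1FV ALX4- clones were far apart there. Sites in all 4 lists near FBLN1, a matrix protein gene, and KCNJ2, a potassium channel gene, had folds of 9.95, 8.25, 11.4 and 6.56, and of 8.70, 9.37, 7.41 and 9.0.

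Among sites in both ALX1FV lists only, the best ranked was an intronic site of LIPC, hepatic lipase (chr15:58555219-58555667; folds 9.34 and 7.0). The next lay 124377 bp upstream of MSX1, a homeodomain factor of the facial and dental mesenchyme, within an intron of STX18-AS1 (chr4:4735103-4735473; folds 8.21 and 6.43). Another lay in SLC6A2, the noradrenaline transporter gene (chr16:55662217-55662808; folds 6.33 and 6.65). Among sites in both ALX1FV ALX4- lists only, those near HACE1, an E3 ubiquitin ligase gene, had folds of 9.49 and 9.70, and the TMEM119 site had 8.33 and 13.8. TMEM119 encodes a membrane protein of bone-forming cells and microglia. Being absent from a list shows that no peak passed the authors' threshold there, and not that ALX1 was absent.

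ALX1 sites lay far from genes' starts in every class. The median distance to the nearest protein-coding start was 38951 bp over all sites, 57.1% of sites were intronic, and 6.25% lay within 1000 bp of a start. TWIST1 peaks found in both WT replicates lay within 1000 bp of a start in 12.8%. The promoter share was 5.76% and 4.52% in the ALX1FV lists and 5.98% and 6.36% in the ALX1FV ALX4- lists, higher in ALX1FV ALX4- by 1.03 points (exact permutation test, two-sided, p = 0.33, the smallest possible). The 4 lists' shares did not overlap between the lines, but the difference was of the size of the spread between the ALX1FV clones (SD 0.876).

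Several genes had clusters of ALX1 sites. Here a gene's sites are those nearest to its start, and sites in 2 or more lists are counted. ETS1, an ETS factor of neural crest and vessels, had 6 such sites of 10 in all, and TMEM132C, a membrane protein gene, 6 of 8. CDH11, a mesenchymal cadherin, had 4 of 8, BMP7, a bone morphogenetic protein, 4 of 6, and NR2F2, a nuclear receptor of the facial mesenchyme, 4 of 6. LDB2, a LIM-domain binding cofactor, and ROR2, a WNT5A receptor, had 4 of 5 each. COL13A1 and COL26A1, which encode collagens, and PLXNA4, a semaphorin co-receptor, had 4 of 4 each, as had RAD51B, a DNA repair gene, and TGFBI, a matrix protein gene. All 6 sites near ETS1 in 2 or more lists, and all 4 near BMP7, COL26A1, PLXNA4, RAD51B and TGFBI, were in lists of both lines. Most such sites were: of the 868 sites in 2 or more lists over all genes, 690 were of both lines. Those near COL13A1 were 2 of both lines and 2 of ALX1FV ALX4- only. WT TWIST1 peaks nearest to the genes named here numbered from 12 (TGFBI) to 53 (CDH11), with 47 near ETS1. The counts of ALX1 sites were not adjusted for these numbers, so they do not show that ALX1 favours these genes among TWIST1 peaks.

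Gene lists gave the same picture by counts. A site in 2 or more lists was nearest to 9 of 18 neural crest factors (ETS1, NR2F1, NR2F2, PAX3, SOX5, SOX9, TFAP2A, TFAP2B and ZEB2) and to 12 of 29 signalling genes, among them BMP2, PDGFRA, PDGFRB, PTCH1 and SEMA3A. It was nearest to 5 of 22 other homeodomain genes (MSX1 and MEIS1 among them), 3 of 11 bHLH factors and partners (TCF4, TWIST1 and TWIST2), 4 of 17 matrix and adhesion genes (CDH11, COL1A2, ITGA8 and POSTN) and 3 of 19 facial mesenchyme factors (FOXF1, GLI2 and TBX3). Of the ALX genes, ALX4 had 3 such sites while ALX1 had none. Over all 20020 protein-coding genes 715 (3.57%) had one. Genes in wide gene-poor regions collect more distal sites, and this was not adjusted for. The 45 sites near neural crest factors split into 16 of both lines, 14 of ALX1FV only and 15 of ALX1FV ALX4- only. Those near signalling genes split into 13, 16 and 8, and those near matrix and adhesion genes into 5, 11 and 7.

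Nearly all ALX1 sites touched a TWIST1 peak, with or without ALX4. Of the V5 peaks, 97.6% and 99.7% in ALX1FV and 99.3% and 98.5% in ALX1FV ALX4- overlapped by at least 1 bp one of the 42318 TWIST1 peaks found in both WT replicates. The share depended on the overlap asked for. When each peak had to cover 50% of the other, it was 7.34% and 1.33% in ALX1FV and 3.48% and 4.66% in ALX1FV ALX4-. Peak width limits that rule: V5 peaks had median widths of 324 to 336 bp and these TWIST1 peaks 612 bp. A typical V5 peak inside a TWIST1 peak could hardly cover 50% of it, so these low shares do not measure co-occupancy. At 1 bp the difference between the lines was 0.233 percentage points (exact permutation test, two-sided, p = 1) and smaller than the spread between the ALX1FV clones (SD 1.49). Its sign turned when ALX1FV replicate 1 (-0.822) or ALX1FV ALX4- replicate 1 (-0.202) was left out. It also turned under the width-limited rule of 50% reciprocal overlap (-0.268). The median distance between V5 and TWIST1 summits was 35 bp. Summits within 100 bp of each other were found for 78.9% and 81.9% of peaks in ALX1FV and for 86.4% and 85.8% in ALX1FV ALX4-, 5.72 points more without ALX4 and without overlap between the groups (exact p = 0.33). TWIST1 peaks of ALX1FV ALX4- cells themselves held 91.4% of the ALX1FV-only sites and 97.9% of the ALX1FV ALX4- only sites.

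The sites followed the strength of TWIST1. Of the 1000 strongest TWIST1 peaks, 66.5% and 67.1% held an ALX1 site in the WT lists and 55% and 56.2% in the ALX1FV ALX4- lists. Beyond rank 20000 the share was 0.191% and 0.200% in WT and 0.368% and 0.460% in ALX1FV ALX4-. In between it fell from bin to bin in all 4 TWIST1 lists.

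**Figure D2:**
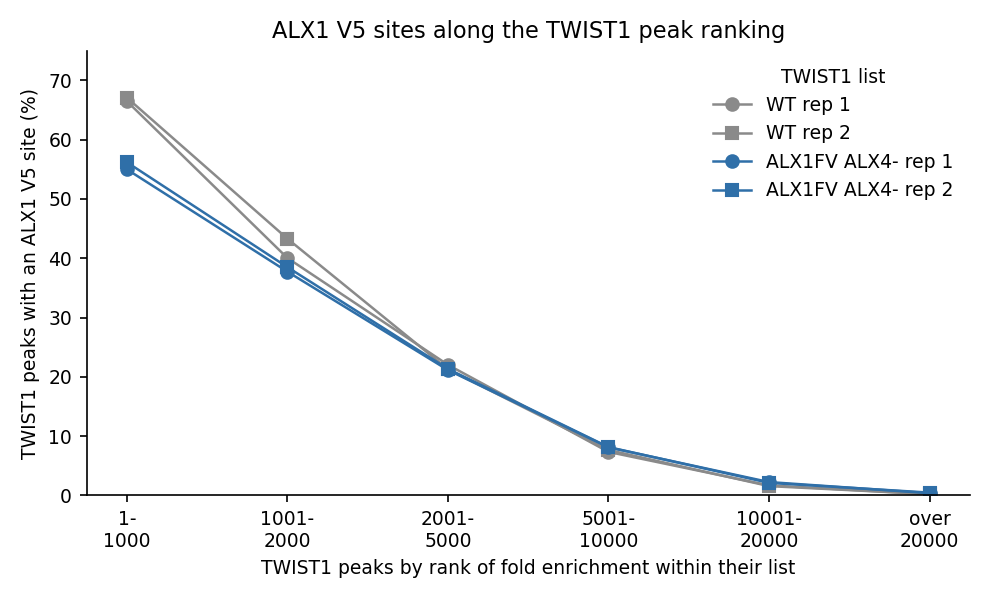
Share of TWIST1 peaks that hold an ALX1 V5 site (y axis, percent) in bins of TWIST1 fold-enrichment rank within each list (x axis), for 2 WT and 2 ALX1FV ALX4- TWIST1 lists. In the bin of the 1000 strongest peaks the WT lists reach 66.5% and 67.1% and the ALX1FV ALX4- lists 55% and 56.2%.

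ALX1FV-only sites ranked lower among TWIST1 peaks in cells without ALX4 than in WT cells, and so did sites in all 4 V5 lists. A site's TWIST1 strength is given as its position in the TWIST1 list, where 1% means the strongest 1 in 100 peaks. Sites in all 4 V5 lists had median positions of 0.797% and 0.904% in the WT lists and of 1.64% and 1.53% in the ALX1FV ALX4- lists. ALX1FV-only sites stood at 5.97% and 7.05% in WT, and at 11.7% and 13.5% in ALX1FV ALX4-. ALX1FV ALX4- only sites stood at 4.04% and 4.95% in WT, and at 4.42% and 5.65% in ALX1FV ALX4-. In proportion to their WT positions, sites in all 4 lists and ALX1FV-only sites shifted to a similar degree. ALX1FV ALX4- only sites shifted least. A shift in points is larger where the WT position is weaker, as it was at ALX1FV-only sites. The gap between the classes (ALX1FV ALX4- only minus ALX1FV only) was -1.94 and -2.10 points in WT and -7.29 and -7.82 in ALX1FV ALX4- (exact permutation test, p = 0.33, the smallest possible). Over sites in both lists of a line, the gaps were -1.81 and -0.849 in WT and -5.83 and -9.80 in ALX1FV ALX4-. The V5 and TWIST1 libraries of ALX1FV ALX4- came from the same clones, so a difference between clones that moves V5 would also be in its TWIST1 lists. The WT TWIST1 libraries had mouse chromatin added as a spike-in and the ALX1FV ALX4- ones did not, per the labels.

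**Figure D3:**
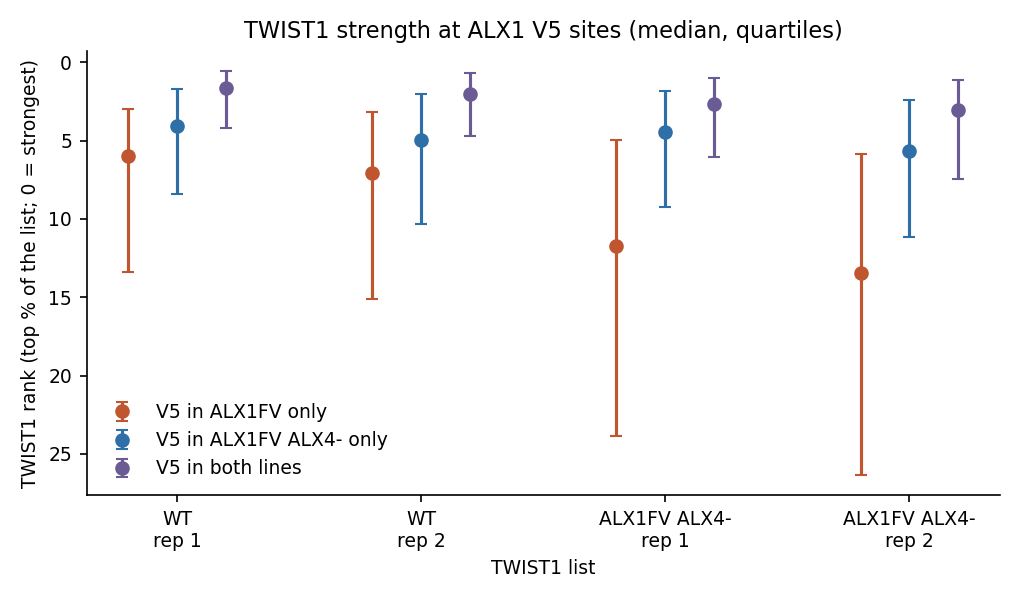
TWIST1 rank of ALX1 sites (y axis, percent of the list, strongest at the top) in each TWIST1 list (x axis); points are medians and bars the quartiles over sites, for sites in ALX1FV only, ALX1FV ALX4- only and both lines. The ALX1FV-only medians are 5.97% and 7.05% in WT and 11.7% and 13.5% in ALX1FV ALX4-, while those of ALX1FV ALX4- only sites stay between 4.04% and 5.65%.

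Single sites in both ALX1FV lists only went either way. The site upstream of MSX1 was at 3.65% and 0.731% in the WT TWIST1 lists and at 54.8% and 24.6% in the ALX1FV ALX4- lists. The SLC6A2 site went from 1.64% and 1.19% to 44% and 37.5%. The LIPC site went from 2.57% and 1.56% to 9.63% and 2.56%, and a site near LRRTM1, a synaptic adhesion gene, from 3.83% and 4.82% to 9.52% and 17.7%. A site near MTUS2 moved little, from 5.04% and 5.50% to 6.21% and 7.05%. The MPPED2 site had the opposite direction and stood higher without ALX4, at 6.39% and 3.23% in WT and 0.739% and 2.22% in ALX1FV ALX4-. The dimer site upstream of ALX4 went from 16.2% and 12.3% to 60.3% and 51.1%, although V5 was listed there in both ALX1FV ALX4- clones. Of the sites in both ALX1FV ALX4- lists only, EMID1 was at 0.577% and 0.0957% in WT and at 0.176% and 0.15% in ALX1FV ALX4-. TMEM119 was at 3.44% and 0.771% in WT and at 2.001% and 0.489% in ALX1FV ALX4-. The ANTXR1 site, in an intron of an anthrax toxin receptor gene, went from 0.916% and 2.6% to 10.6% and 9.26%. The HACE1, ADGRG5 and TNRC6C sites stood between 0.847% and 5.58% in WT and between 0.365% and 2.12% in ALX1FV ALX4-.

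AP2a (TFAP2A), a pioneer factor of the neural crest, was present at many ALX1 sites. Its peaks overlapped 71.4% of sites in all 4 lists, 60.0% of sites of both lines, 37.6% of ALX1FV-only and 48.0% of ALX1FV ALX4- only sites, against 21.3% of the WT TWIST1 peaks. These shares were not matched for TWIST1 strength, which was high at ALX1 sites, or for width. Median widths were 529 bp at sites in all 4 lists, 326 bp at ALX1FV-only and 314 bp at ALX1FV ALX4- only sites. The WT TWIST1 peaks had 612 bp. By V5 list the shares were 47.7% and 56.1% in ALX1FV and 57.2% and 53.9% in ALX1FV ALX4-, a difference of 3.67 points within the spread of the ALX1FV clones (exact permutation test, p = 0.67), which became -0.559 without ALX1FV replicate 1. V5 peaks of MSX1, another homeodomain factor, overlapped 45.9% of the sites in all 4 lists and 8.98% of all sites. MSX1 lists are short (50 and 278 peaks), so only its strongest sites enter this overlap. Both factors were read by V5, and V5 libraries after degradation were not analysed. Binding by both factors and signal common to V5 libraries cannot be told apart here.

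Motifs were searched on both strands within 100 bp of each V5 summit. The E-box counted was CATCTG, whose other strand reads CAGATG, or a palindrome of the same frame, which is CAGCTG in one form and CATATG in the other. The homeodomain site was TAATTA or the related TAATTG, and the dimer can contain either. ALX1FV ALX4- only sites held more E-boxes and fewer homeodomain sites than ALX1FV-only sites. E-boxes were in 57.0% of ALX1FV-only sites (95% Wilson interval 53.7% to 60.4%), 72.2% of ALX1FV ALX4- only sites (69.2% to 75.1%) and 71.6% of sites of both lines. Homeodomain sites were in 40.9% (37.7% to 44.3%), 29.6% (26.7% to 32.7%) and 40.7%. WT TWIST1 peaks without a V5 site held an E-box in 67.2% and a homeodomain site in 24.7%, and all ATAC-seq peaks in 41.3% and 12.7%. Intervals cover counting error only.

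Of the 3 motifs, the dimer showed the widest ratio between these classes. It was in 44 of 838 ALX1FV-only sites (5.25%, 3.93% to 6.98%), in 29 of 690 sites of both lines (4.2%) and in 11 of 889 ALX1FV ALX4- only sites (1.24%, 0.692% to 2.2%). Flanking windows 1000 bp away held it in 1.13%, 0.362% and 0.844%, and ATAC-seq peaks in 0.465%. Among sites in both lists of a line, 4 of 41 ALX1FV-only sites and 0 of 137 ALX1FV ALX4- only sites held it (Wilson upper bound 2.73%). The 4 lay near TFAP2B, an AP2 factor gene, ARRDC4, an arrestin-domain gene, FAM20C, a secreted kinase gene of mineralised tissue, and MPPED2, a metallophosphoesterase gene. In sites private to ALX1FV replicate 1 the share was 5.16% and in those private to replicate 2 it was 3.75%, against 0.971% and 1.81% for the ALX1FV ALX4- clones.

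By V5 list the differences between the lines were smaller, since lists hold shared sites too. The dimer was in 5.11% and 3.99% of ALX1FV peaks and in 2.07% and 2.87% of ALX1FV ALX4- peaks, lower by 2.08 points without ALX4. E-boxes were in 63.1% and 67.3% against 74.1% and 72.5%, and homeodomain sites in 41.5% and 41.2% against 33.3% and 34.1%. For each of these 3 motifs the libraries of the lines did not overlap, with an exact permutation p of 0.33, the smallest possible. The composite of an E-box and a homeodomain site 4 bp apart was in 2.38% and 2.93% against 3.04% and 3.41%, higher by 0.574 points without ALX4 (exact p = 0.33, SD within the lines 0.389 and 0.256). Base composition moved with the classes: the median GC content of the window was 43.8% in ALX1FV-only sites and 47.8% in ALX1FV ALX4- only sites. Its part in the motif shares was not tested.

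**Figure D4:**
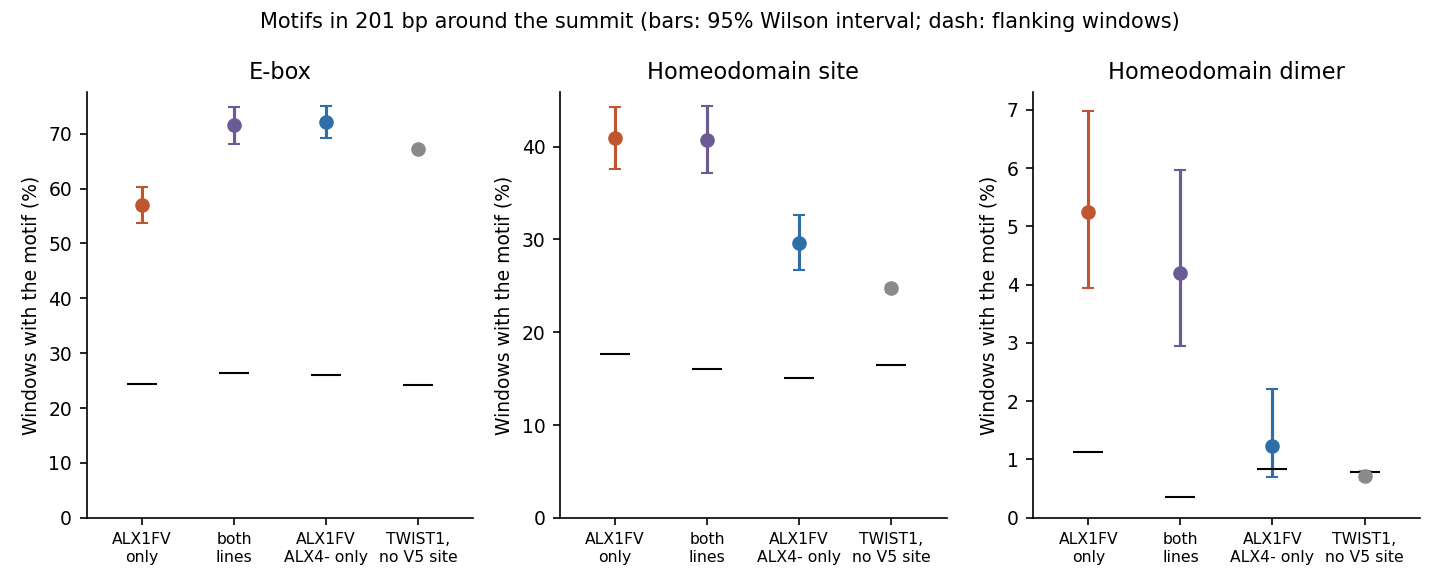
Share of ALX1 sites with an E-box, a homeodomain site and the homeodomain dimer (y axes, percent of summit windows) by class (x axis), with WT TWIST1 peaks without a V5 site for comparison; points are shares, bars 95% Wilson intervals and dashes the share in flanking windows. The dimer is in 5.25% of ALX1FV-only sites and in 1.24% of ALX1FV ALX4- only sites.

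H3K27ac, measured in the same lines at 0 h, was lower at ALX1 sites in cells without ALX4, most of all at ALX1FV-only sites. The classes were set by V5 in these same lines. A difference between the clones that moves V5 could thus also be in H3K27ac. The order of the classes is therefore not independent of how they were chosen. Counts covered 213151 ATAC-seq peaks, with totals from 5940615 to 8811096 per library, and 2381 ALX1 sites (98.5%) overlapped such a peak. Replicates correlated across peaks at 0.871 to 0.904. The cells carried neural crest marks: acetylation at the starts of all 10 neural crest markers stood at or above the 95.1th percentile of peaks. Pluripotency genes were mixed. POU5F1 and NANOG had no ATAC-seq peak at their start, and TDGF1 and UTF1 stood at percentiles 1.80 and 2.84. LIN28A stood at 99.9 and DPPA4 at 88.4. Of the epithelial genes EPCAM stood at 81.2 and the others at or below 27.8. Neural genes stood at or below 63.0, and the endothelial genes CDH5 and KDR at 46.6.

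At ALX1FV-only sites the median log2 CPM was 4.34 and 4.38 in the ALX1FV clones and 3.64 and 3.80 in the ALX1FV ALX4- clones. At ALX1FV ALX4- only sites it was 4.54 and 4.68 against 4.35 and 4.38, and at sites of both lines 5.10 and 5.23 against 4.76 and 4.79. Both ALX1FV ALX4- clones were thus below both ALX1FV clones in each class, and furthest at the ALX1FV-only sites. The median log2 fold change (ALX1FV ALX4- over ALX1FV) was -0.53 at ALX1FV-only sites, -0.25 at sites of both lines, -0.21 at ALX1FV ALX4- only sites and -0.27 at TWIST1 peaks without an ALX1 site, against 0.014 over all 139815 peaks tested. No class had a median above 0.

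By edgeR's quasi-likelihood test at a false discovery rate (FDR) of 0.05, 359 of 2422 peaks at ALX1 sites were lower without ALX4 (14.8%) and 17 higher. Over all peaks 2352 were lower (1.68%) and 905 higher (0.647%), 2.33% in either direction. The fit took all 12 libraries as independent, although each clone gave a library at each of 0, 3 and 24 h. Deviations of the same clone correlated at 0.183 to 0.190 in ALX1FV. Its calls therefore rest on 2 clones per line, and fewer peaks were called with the 0 h libraries alone. ALX1 sites are strongly acetylated, where calls are made more easily. Classes were therefore also set beside TWIST1 peaks without an ALX1 site, limited to the middle range of acetylation of the class. These sets were not fully matched and stood lower. Their median log2 CPM in the ALX1FV clones was 3.78 and 3.84 against 4.34 and 4.38 for ALX1FV-only peaks. It was 4.72 and 4.81 against 5.10 and 5.23 for both lines, and 4.28 and 4.37 against 4.54 and 4.68 for ALX1FV ALX4- only. TWIST1 strength was not matched. Of the ALX1FV-only peaks 181 of 821 fell and 4 rose, 22.5% in all against 10.8% of the 11408 such TWIST1 peaks. Of the peaks of both lines 87 of 706 fell and 6 rose, 13.2% against 11.0%. Of the ALX1FV ALX4- only peaks 88 of 886 fell and 7 rose, 10.7% against 11.2%. Sites private to 1 ALX1FV clone fell in both cases: 147 of 701 peaks for replicate 1 and 19 of 78 for replicate 2, with medians of -0.53 and -0.50. Of the 43 peaks at sites in both ALX1FV lists only, 16 fell, with a median of -0.73 over the 43.

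The number of calls moved with single libraries. Without ALX1FV ALX4- replicate 1, 99 peaks at ALX1 sites were called, without its replicate 2, 215, and without ALX1FV replicate 2, 212. In ALX1FV-only sites 56 were called lower without ALX1FV ALX4- replicate 1 and 115 without replicate 2. The ALX1FV-only median stayed between -0.60 and -0.45 under every alternative run. Of all called peaks 72.2% were lower, and 61.8% with scaling by library size alone. At ALX1 sites these shares were 95.5% and 92.7%.

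**Figure D5:**
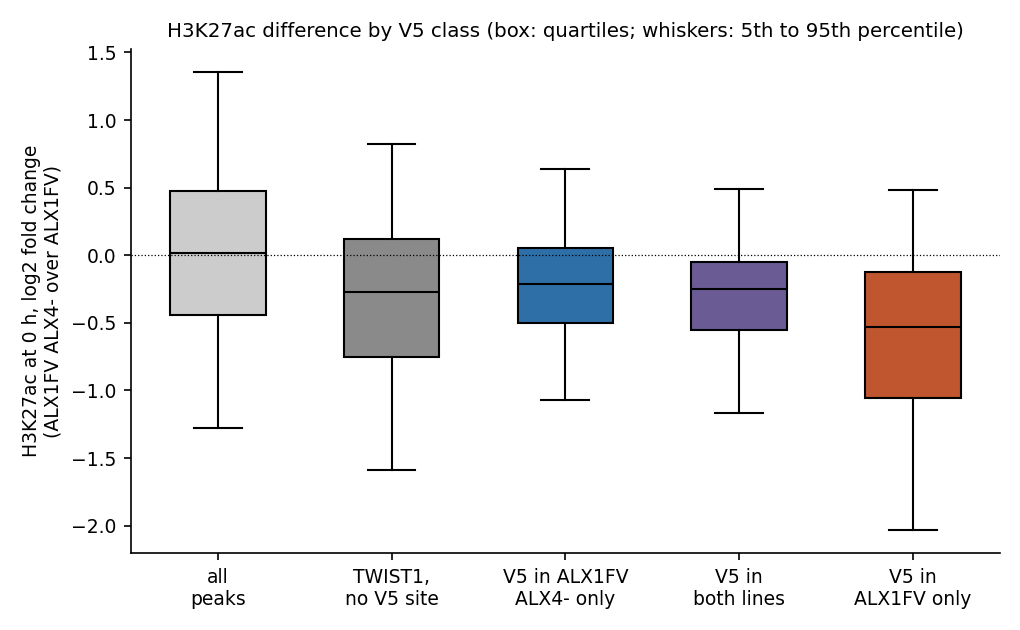
Log2 fold change of H3K27ac at 0 h, ALX1FV ALX4- over ALX1FV (y axis), over all tested ATAC-seq peaks, TWIST1 peaks without an ALX1 site and the classes of ALX1 sites (x axis); boxes are quartiles, lines medians and whiskers the 5th to 95th percentile over peaks. The ALX1FV-only median of -0.53 is the lowest of the 5 sets.

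Sites whose H3K27ac fell were also those where TWIST1 stood lower in cells without ALX4. At the 359 peaks that fell, median TWIST1 positions were 3.22% and 3.39% in WT and 9.10% and 10.0% in ALX1FV ALX4-. At the 2046 peaks that were not called they were 3.89% and 4.52% in WT and 4.53% and 5.53% in ALX1FV ALX4-. Of the fallen peaks listed in all 4 TWIST1 lists, 317 of 350 (90.6%) had a weaker mean position in ALX1FV ALX4-, against 1235 of 1989 (62.1%) of the peaks not called. Of the 16 listed peaks with higher H3K27ac, 2 had a weaker position. At fallen ALX1FV-only peaks the medians went from 4.35% and 5.20% to 16.4% and 18.1%. Both readouts used the same ALX1FV ALX4- clones.

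The largest fall lay 856 bp upstream of an annotated start of CNTNAP2, a neuronal cell adhesion gene (chr7:148262058-148262412), where V5 was listed in ALX1FV replicate 1 with fold 12.1. Log2 CPM of H3K27ac was 5.92 and 5.83 in ALX1FV and 2.04 and 2.48 in ALX1FV ALX4-, a log2 fold change of -3.71 (SE 0.238; edgeR FDR 4.99e-08). TWIST1 there went from 2.37% and 1.77% in WT to 45.0% and 27.6%. An intronic site of CACNA2D2, a calcium channel subunit gene (chr3:50430960-50431380), had 4.58 and 5.88 against 1.83 and 2.68, a change of -3.16 (SE 0.388; edgeR FDR 7.78e-05). The third, near FAM135B, changed by -3.06 (edgeR FDR 1.55e-05). All 3 were listed in 1 ALX1FV library, and all 3 stayed called with each of the 4 libraries at 0 h left out in turn. Rises were smaller. The 2 largest were at weakly acetylated peaks and were each called in 1 of the 4 fits that left out a library. A peak near PTGER2, a prostaglandin receptor gene, at a site in 1 ALX1FV ALX4- list, went from 0.34 and -0.82 to 1.78 and 2.06, a log2 fold change of 2.45 (edgeR FDR 0.0417). A peak near ZFPM2, a GATA cofactor gene, at a site in 1 ALX1FV list, went from -0.09 and 0.52 to 2.62 and 1.86, a change of 2.30 (edgeR FDR 0.0167). The site near RGS7, a regulator of G-protein signalling, was in both ALX1FV lists and 1 ALX1FV ALX4- list and went from 2.38 and 2.52 to 4.60 and 4.23, a log2 fold change of 2.01 (edgeR FDR 0.00026), also called with each library left out.

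Near regulators of the face, the MSX1 site had the largest fall of the listed genes. Its log2 CPM was 5.11 and 5.21 in ALX1FV and 1.87 and 3.29 in ALX1FV ALX4-, a log2 fold change of -2.51 (SE 0.314; edgeR FDR 9.52e-05). Both clones without ALX4 were low, and they also differed from each other. The 2 peaks of the SLC6A2 site fell by 1.94 and 1.66 on the log2 scale, the second called in 3 of the 4 fits that left out a library. A site 306624 bp upstream of SOX9, a neural crest and cartilage factor (chr17:71814137-71814543), had 5.48 and 5.89 against 4.10 and 4.41, a fall of 1.47 (edgeR FDR 0.000338). A second SOX9 site, 275502 bp upstream, fell by 0.95 (edgeR FDR 0.000443).

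The ALX4 locus also had lower H3K27ac. ALX4 is the gene that ALX1FV ALX4- lacks, so editing of this locus and absence of the ALX4 protein cannot be told apart here. The dimer site 116445 bp upstream of ALX4 had log2 CPM of 6.89 and 7.19 in ALX1FV and 6.13 and 6.15 in ALX1FV ALX4-, a fall of 0.93 (SE 0.127; edgeR FDR 0.000235). Of the 6 peaks at sites near ALX4, 3 fell, and none rose. The peak at the start of ALX4 fell by 0.71 (SE 0.105; edgeR FDR 0.000486).

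By list, 8 of 46 peaks near neural crest factors fell, at ETS1, NR2F1, PAX7, SOX9, TFAP2B and TFAP2C, and 1 rose, at NR2F2. The NR2F2 site, in all 4 V5 lists, had 2.78 and 2.11 in ALX1FV and 3.80 and 3.80 in ALX1FV ALX4- (log2 fold change 1.35, edgeR FDR 0.0336), and was called in 1 of the 4 fits that left out a library. Near matrix and adhesion genes 6 of 24 fell, at CDH11, COL12A1, COL3A1 and NCAM1. Near signalling genes 4 of 37 fell, at BMP7 and DKK2, a WNT inhibitor. Near other homeodomain genes 2 of 16 fell, MSX1 among them, and 1 rose, at LHX8. Near facial mesenchyme factors 1 of 14 fell, at TBX3, and near bHLH factors 1 of 11, at ID4. In all lists together 25 of 154 fell (16.2%), close to the 14.8% of all ALX1 sites. Of these calls, those at MSX1, at both SOX9 sites and at the dimer site of ALX4 held with each of the 4 libraries left out, those at TFAP2B, TFAP2C and LHX8 were called in none of these fits, and the others in 1 to 3 of the 4. The site shared by all 4 lists near CDH11, whose sequence is printed above, had 4.90 and 5.33 against 4.85 and 5.03 and was not called (log2 fold change -0.21, edgeR FDR 0.742).

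ALX1FV-only sites with the dimer had a lower median than those without. The 42 tested peaks with it had a median log2 fold change of -0.87, and 11 fell (26.2%). The 779 peaks without it had -0.52, and 170 fell (21.8%). This split was made after the values were seen and the difference was not tested. At sites of both lines the medians with and without the dimer were -0.30 and -0.25, while the share that fell was smaller with it, 2 of 32 peaks (6.25%) against 85 of 674 (12.6%). At ALX1FV ALX4- only sites 0 of 11 peaks with the dimer fell and 88 of 875 without it. ALX1FV-only peaks with an E-box had a median of -0.51, and those without one -0.57.

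After ALX1 was degraded, H3K27ac at these sites had no call where ALX4 was present and few where it was absent in the fit without a clone block, and more calls with that block. Without the block, in ALX1FV, 0 of 2410 peaks at ALX1 sites were called at 24 h of dTAGV-1 (0% of all peaks, and 32 sites at an unadjusted p under 0.05; 0 by DESeq2). At 3 h 0 were called as well, with 13 at an unadjusted p under 0.05. In ALX1FV ALX4-, 0 were called at 3 h (239 at an unadjusted p under 0.05) and 19 of 2391 at 24 h, all of them lower, against 0.0279% of all peaks called, 0.027% lower and 0.00082% higher. DESeq2 called 17. Of the 19, 11 lay at sites of both lines, 7 at ALX1FV-only and 1 at ALX1FV ALX4- only sites. The difference between the lines in the 24 h response was called at 0 sites by edgeR (107 at an unadjusted p under 0.05; 0 by DESeq2). With the clone as a block it was called at 8, so whether a difference was called depended on the model. The counts at an unadjusted p under 0.05, and the block counts here and below, are not set beside their share over all peaks. They therefore do not show whether ALX1 sites stood out from other peaks.

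The 24 h count depended on the libraries and the model. It was 70 with the clone as a block, which pairs the time points of a clone, 5 without a filter on low counts, and 0 when either ALX1FV ALX4- library at 24 h was left out. With that block ALX1FV had 1 call at 24 h. Median log2 fold changes at 24 h over all ALX1 sites were -0.07 in ALX1FV and -0.16 in ALX1FV ALX4-.

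Of the sites called at 24 h in ALX1FV ALX4-, an intronic site of PLD5, a phospholipase D family gene (chr1:242132406-242132774), fell by 2.11 on the log2 scale (SE 0.377; edgeR FDR 0.0173). V5 was listed there in ALX1FV replicate 1 alone, with fold 8.03. A site 1517290 bp from the start of PCDH18, a protocadherin gene, fell by 1.88 (edgeR FDR 0.0172). A site near DCAF4L2 fell by 1.97 (edgeR FDR 0.00165). At 0 h the same 3 sites differed between the lines by -1.91, -1.12 and -2.05, of which the last passed the test (edgeR FDR 0.000133). In ALX1FV the 24 h changes there were -0.74, -0.59 and -0.76, none of them called (edgeR FDR 1). These were the 3 largest of the called falls. At all 3, V5 was listed in ALX1FV replicate 1 alone and in no ALX1FV ALX4- list.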

How the data were processed

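ChIP-seq peak lists and read counts were used as deposited. The V5, TWIST1 and AP2a narrowPeak lists gave, as the authors deposited them, a fold enrichment (a linear ratio) and a -log10 p and -log10 q per peak, called for each library separately. Bowtie2 2.4.1, SAMtools 1.10, MACS2 2.2.7.1 and deepTools 3.5.0 and the build hg38 are named in the submitters' processing notes. No source used here gives the peak threshold or the control, and the read depth behind the peaks is unknown. H3K27ac values were raw counts of reads per merged ATAC-seq peak, deposited by the authors without normalization. Most were even numbers, as arises when both mates of a pair are counted.

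Peaks sharing 1 bp were merged into sites, with the nearest protein-coding start taken from GENCODE 44. Differences between V5 lists were tested by exact permutation over the 4 libraries. H3K27ac was tested with edgeR 4.0.16 (quasi-likelihood, TMM scaling, Benjamini-Hochberg FDR 0.05 over the peaks kept by a filter on low counts), and DESeq2 1.42.0 was an alternative. The 0 h comparison and the differences between the lines in response used all 12 libraries of both lines. Each change from 0 h to 3 h or 24 h used the 6 libraries of its line. A prior count of 2 entered the log2 CPM values only. On simulated counts for the 0 h comparison (128251 peaks tested) edgeR recovered 30 of 100 peaks lowered 2-fold and 86 of 100 lowered 4-fold, with 8 false calls. The lowered peaks were all drawn from peaks at ALX1 sites. Simulated libraries were independent, and the spread of each peak followed the trend over peaks. Spread particular to a peak and correlation within a clone were left out, so these rates need not hold for the data. Other alternatives were library size scaling, no filter on low counts, a replicate block, each library left out, other overlap rules, other windows and lists of equal length.

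The named sites are the 8 best by mean rank of fold in all 4 lists, the 6 best in both lists of each line only, the best for up to 12 listed genes, the 10 genes with most sites (ties kept) and the 3 largest H3K27ac changes in each direction. The members, gene lists and rules were chosen with earlier results of these data known. Sets of TWIST1 peaks limited to a range of acetylation and the printed dimer examples were chosen after the values were seen. Replicate numbers name the same clone over time within a line. The correlation of same-clone deviations was 0.183 to 0.190 in ALX1FV and 0.0235 to 0.0326 in ALX1FV ALX4-. Between lines the numbers mark different clones, and the correlation was -0.0270 to -0.00849. Some listed genes are not reported here.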

Additional observations from a re-analysis of the deposited data

How the results depend on the processing

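Depth of the V5 libraries is unknown and 2 clones per line limit every comparison, so a site missing from a list is not shown to be unbound. Of 204 alternative values of the main results, 153 kept their direction and size, 47 moved and 4 reversed. Of 597 for the 67 named H3K27ac peaks, 486 kept their call, 97 lost it, 11 gained it, 3 moved and none reversed.

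The difference in TWIST1 co-occupancy became -0.268 with a reciprocal overlap of 50%, a rule that peak width limits. It ranged from -0.822 to 1.29 with each library left out (-0.202 without ALX1FV ALX4- replicate 1). The AP2a difference ranged from -0.559 to 7.90. Sites in all lists numbered 19 with lists of equal length and 157 to 296 with a library left out. Sites in every ALX1FV list only numbered 27 at a -log10 q of at least 5 and 70 to 758 with a library left out. Sites in every ALX1FV ALX4- list only numbered 55 with equal lengths and 161 to 580 with a library left out. The causes were not tested, beyond the shorter or fewer lists themselves.

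For H3K27ac at 0 h, calls over all peaks numbered 2083 with the 0 h libraries alone and 554 to 2638 with a library left out. At ALX1 sites they ranged from 99 to 318. Peaks called lower ranged from 56 to 149 (ALX1FV only), 20 to 76 (both lines) and 21 to 75 (ALX1FV ALX4- only). With library size alone the medians were -0.45 (ALX1FV only), -0.17 (both lines), -0.13 (ALX1FV ALX4- only), -0.22 (all ALX1 sites) and -0.18 (TWIST1 without an ALX1 site). With a library left out they ranged from -0.60 to -0.49 (ALX1FV only), -0.30 to -0.22 (both lines) and -0.32 to -0.20 (TWIST1 without an ALX1 site).

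After dTAGV-1, the replicate block gave 1 call at 24 h in ALX1FV, 1 at 3 h and 70 at 24 h in ALX1FV ALX4-, and 8 in the difference of the 24 h responses. Without the low-count filter the ALX1FV ALX4- 24 h count was 5, and with a library left out it ranged from 0 to 35, with 0 to 2 at 3 h. At 0 h, where the block joins clones that share only a number, it gave 406 calls at ALX1 sites against 376.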
